A study of Homo sapiens with 6 samples.

Results

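The genes described here are 35 genes of cholesterol and fatty acid synthesis, chosen by symbol from a list of the enzymes, regulators and exporters of these pathways. All 35 were found among the 26485 gene symbols of the count tables, and 33 of them were among the 12282 genes with enough reads to be tested. The cells were K562, an established human chronic myeloid leukaemia line that carries an erythroid programme. A control group carried a guide named sgNeg2 and was labelled wild type. The other groups carried guide sgRNA#1 or sgRNA#2 against ZNF410, a zinc-finger transcription factor, and were labelled as its knockout; they are called sgRNA1 and sgRNA2. Each group had 2 libraries, numbered replicate 1 and replicate 2, all grown in the same serum-containing medium without a further treatment. Whether the edited cells were clones or pools, the time after editing, and whether replicates were separate cultures are not given in the sources used here, so p-values measure only the spread between these libraries. The series as a whole asked how ZNF410 binding acts on chromatin and enhancers, and the comparisons here ask whether the lipid synthesis genes changed with its loss.

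Cholesterol is built from acetyl-CoA through mevalonate, isoprenoid diphosphates and squalene, and fatty acids are built from the same acetyl-CoA by fatty acid synthase and then elongated and desaturated. Both pathways are driven by the sterol regulatory element binding proteins (SREBPs), which SCAP escorts from the endoplasmic reticulum for cleavage and which INSIG proteins hold back when sterols are plentiful. Liver X receptors (LXRs) sense oxysterols and switch on the cholesterol exporters. Proliferating leukaemia cells use both routes to make membrane lipids.

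Gene counts summed to 8788816 to 9537470 per library. The targeted gene, ZNF410, was counted 331, 175 and 157 times in replicate 1 of the control, sgRNA1 and sgRNA2, and 322, 234 and 190 times in replicate 2, so all 4 knockout libraries were below both controls. All 11 K562-like markers were at 1 FPKM or more in every library (FPKM is a level scaled for gene length and library size). Libraries stood apart by replicate number more than by guide: 45.0% of tested genes differed between the numbers, beside 1.84% for the knockout in a fit blocked by number. The first principal component held 72.1% of the variance, and its values by library are not given here. Where values of single libraries are given below, they stand by number in the order control, sgRNA1, sgRNA2, and the knockout comparison is given both unblocked and blocked by number. In these bulk samples, fewer cells of a type and less RNA per cell cannot be told apart.

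The genes of the pathway spanned a wide range of levels in K562. Apart from ABCA1 and ABCG1, they lay between the 50.7 (INSIG2) and 97.1 (FADS1) percentile of genes with a mean FPKM above 0. By mean FPKM over the 6 libraries, 10 of the 35 genes were at 100 or more, 15 between 10 and 100, 8 between 1 and 10, and 2 under 1. The 10 highest were FADS1, FASN, FDPS, SCD, EBP, SQLE, ACAT2, FDFT1, ACLY and HMGCS1, and the same 10 led when the whole-number counts were divided by gene length. Of the 34 pairs of neighbours in the order, 30 overlapped in their range over the libraries. The 4 pairs without overlap were DHCR7 and INSIG1 (83.25 against 76.7 FPKM at the gap), MVK and LPIN1 (10.4 against 9.89), AACS and SC5D (5.01 against 4.81), and INSIG2 and ABCA1 (2.90 against 0.01), and the last of these was the largest step as a ratio. The order by mean covers both replicate numbers, and for genes that differed between them it does not hold in each number.

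**Figure D1:**
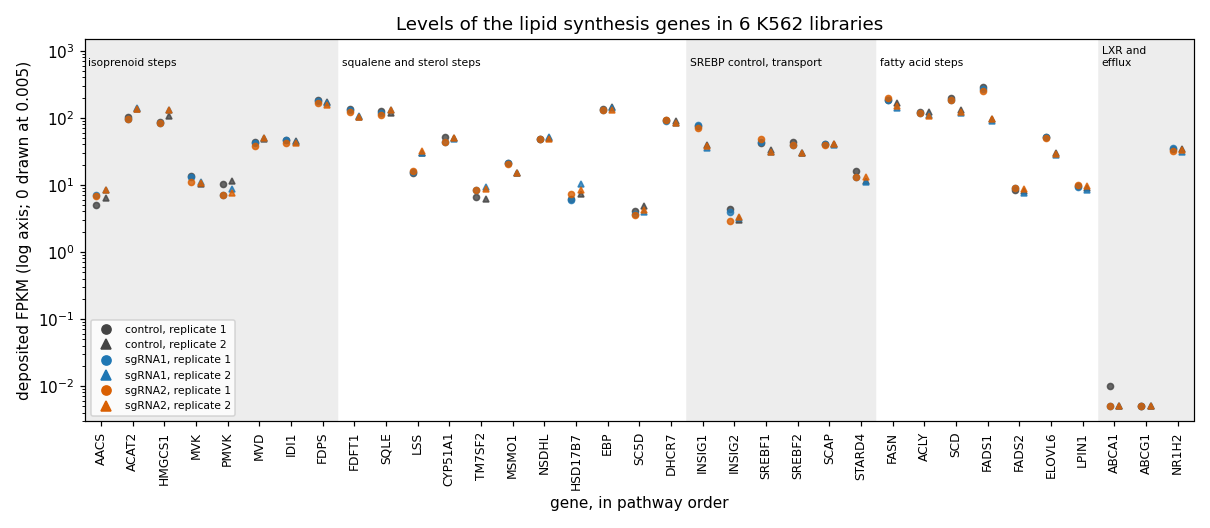
Deposited FPKM (log axis) of the 35 genes in pathway order, with 1 point for each of the 6 libraries (circles replicate 1, triangles replicate 2, colours for guide groups, 0 drawn at 0.005). The 10 highest genes lie above 100 FPKM on average, ABCA1 and ABCG1 lie at the bottom, and FADS1, INSIG1, LSS and ELOVL6 show the widest gaps between circles and triangles.

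The isoprenoid steps differed widely in level. FDPS, which makes farnesyl diphosphate, was the highest of the 8, at 185.85, 177 and 165 FPKM in replicate 1 and 171, 164 and 155 in replicate 2. AACS, which activates the ketone body acetoacetate in the cytosol, was the lowest by mean FPKM, at 5.01, 7.11 and 6.87 in replicate 1 and 6.36, 8.47 and 8.31 in replicate 2. PMVK overlapped AACS in the knockout libraries, at 6.98 to 8.57 FPKM, and was below it by counts per length. In FDPS each control library was above the knockout libraries of its number, and in AACS each was below them. Of the others, ACAT2 (the cytosolic thiolase) and HMGCS1 (HMG-CoA synthase) averaged 117 and 102 FPKM over the 6 libraries. MVD (the mevalonate diphosphate decarboxylase) averaged 45.3 and IDI1 (the isomerase) 44.2, while the kinases MVK and PMVK averaged 11.5 and 8.65.

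Among the 11 squalene and sterol enzymes, EBP, a sterol isomerase, was highest by its mean over the 6 libraries, at 135, 129 and 131 FPKM in replicate 1 and 142, 139 and 129 in replicate 2. FDFT1 was just above it in sgRNA1 replicate 1 and SQLE in sgRNA2 replicate 2. SC5D, a sterol desaturase, was lowest at 4.11, 3.62 and 3.52 FPKM in replicate 1 and 4.81, 3.94 and 4.21 in replicate 2. The early enzymes SQLE (squalene epoxidase) and FDFT1 (squalene synthase) were also abundant, at means of 122 and 116 FPKM. DHCR7, a terminal reductase, averaged 88.3, NSDHL, a sterol dehydrogenase, 48.8, CYP51A1, the lanosterol demethylase, 47.7, and LSS, the lanosterol synthase, 22.9 (15.5 in replicate 1 and 30.2 in replicate 2). MSMO1 (a sterol methyl oxidase), TM7SF2 (a sterol reductase) and HSD17B7 (a ketosteroid reductase) averaged 18.0, 7.91 and 7.53. The steadiest of the sterol enzymes was NSDHL, with a coefficient of variation of 3.28% over the 6 libraries.

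Of the regulators, INSIG1 was highest by its mean over the 6 libraries, 56.0 FPKM, and its relative INSIG2 lowest at 3.44. INSIG1 averaged 74.7 FPKM in replicate 1 and 37.3 in replicate 2, where SCAP was above it in every group. SCAP, the SREBP escort, was the steadiest of all 35 genes, at 38.6 to 40.7 FPKM, a coefficient of variation of 1.93%. SREBF1 and SREBF2, which encode the SREBPs, averaged 38.2 and 35.2, and STARD4, a sterol carrier, 12.9. The fatty acid genes ranged from FADS1, a desaturase of polyunsaturated fatty acids, at a mean of 180.3 FPKM, to its neighbour FADS2 at 8.43, although by whole-number counts per length LPIN1 was below FADS2. FADS1 led in replicate 1, at a mean of 267 FPKM, but at 93.6 in replicate 2 it was below FASN (152), SCD (124) and ACLY (112). LPIN1, a phosphatidate phosphatase, averaged 9.25.

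The cholesterol exporters were at or near 0. ABCG1 had 0 counts in all 6 libraries, where a count of 0 allows up to 0.315 to 0.341 CPM (counts scaled to library size) by library, for counting error only. ABCA1 had 1 count in replicate 1 of the control and 0 in the other 5 libraries. NR1H2, which encodes LXR-beta, was at 34.4, 35.5 and 31.9 FPKM in replicate 1 and 34.7, 31.2 and 32.9 in replicate 2. Thus the receptor was measured at a steady level while neither exporter passed the filter on low counts, and the exporters enter no test below.

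No tested lipid gene passed the edgeR test on the whole-number counts for loss of ZNF410, with all 6 libraries and no correction for GC content. With edgeR's quasi-likelihood test, 0 of 33 had an adjusted p under 0.05 for sgRNA1, for sgRNA2 or for both guides against the control, where the background over 12282 genes was 0% as well. These unblocked fits cannot show a lack of change. On simulated counts they recovered 0% of 2-fold changes for each guide and 38% for the knockout. At an unadjusted p under 0.05 there was 1 gene for sgRNA1, 0 for sgRNA2 and 1 for the knockout as a whole, beside 120, 141 and 284 of all 12282 genes. With the replicate block, where 0.887%, 1.38% and 1.84% of all genes were called for sgRNA1, sgRNA2 and the knockout, the lipid genes again gave 0 calls. At an unadjusted p the blocked fit gave 4, 5 and 7, beside 1217, 1511 and 1590 of all genes. DESeq2's Wald test gave 0 for the knockout without and with the block. Its share over all genes is not given here, so these counts cannot be set against a background. Limma on log2(FPKM + 1) gave 0 without the block and 3 with it, AACS and TM7SF2 higher and PMVK lower, where 1.64% of genes were called. With GC content and length trends removed, the blocked edgeR fit called FASN, lower (background 2.33%). Without control replicate 1 it called 2 for the knockout, HMGCS1 higher and LSS lower (background 1.16%). For LSS that direction was not seen in the estimated counts, where the knockout libraries of replicate 2 were 0.03 and 0.13 above control on the log2 scale, against -0.95 and -0.58 in the whole-number counts. HMGCS1 was above control in replicate 2 only, by 0.31 and 0.27 in log2 CPM for sgRNA1 and sgRNA2, against -0.07 and -0.02 in replicate 1. The smallest adjusted p of a lipid gene in the blocked knockout comparison was 0.0996, for TM7SF2. The median log2 difference over the 33 genes in that fit was -0.06, against 0.00446 over all genes tested, and the median absolute size was 0.0846 against 0.0980.

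The blocked fit bounded most of these differences. For 29 of 33 genes the 95% interval of the knockout difference lay within 0.5 log2 units of 0 on either side. For INSIG1 the difference was -0.01 with an interval of -0.13 to 0.11, for SREBF1 it was 0.03 with -0.11 to 0.18, and for SREBF2 it was -0.08 with -0.20 to 0.05. FADS1 was at -0.09 (-0.20 to 0.02), SCD, the stearoyl-CoA desaturase, at -0.13 (-0.23 to -0.03), and FASN at -0.10 (-0.21 to 0.01). The genes with intervals reaching past 0.5 were AACS, PMVK, TM7SF2 and LSS.

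AACS and TM7SF2 were higher in all 4 knockout libraries than in both control libraries. AACS lies at chr12:125065379-125143333 (GRCh38, forward strand). Its control libraries averaged 18.6 ± 2.26 CPM (SD, n = 2), those of sgRNA1 26.1 ± 5.63 and those of sgRNA2 23.4 ± 2.53. The blocked knockout difference of AACS was 0.41 in log2 (SE 0.118, edgeR adjusted p 0.113). TM7SF2 lies at chr11:65111845-65116384 (forward strand), where 16 exon bases are shared with VPS51. It had 79, 147 and 125 counts in replicate 1 and 104, 152 and 125 in replicate 2, which gave means of 10.03 ± 1.32 CPM for the control, 16.04 ± 0.169 for sgRNA1 and 13.5 ± 0.0488 for sgRNA2 (SD, n = 2 each). Its blocked difference was 0.56 (SE 0.157, edgeR adjusted p 0.0996). Neither difference passed edgeR's test across all genes, while limma with the block called both (adjusted p 0.0417 for AACS and 0.0412 for TM7SF2). For sgRNA1 alone, the blocked fit called TM7SF2 without control replicate 2, sgRNA2 replicate 1 or sgRNA2 replicate 2 (edgeR adjusted p 0.0213, 0.0237 and 0.0103), and AACS without sgRNA2 replicate 2 (0.0393). Of all genes, 3.63%, 1.94% and 2.5% were called in those fits.

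PMVK differed the other way. It lies at chr1:154924734-154936991 (reverse strand) and had 91, 76 and 71 counts in replicate 1 and 96, 79 and 69 in replicate 2. The means were 10.3 ± 0.257 CPM for the control, 8.32 ± 0.0564 for sgRNA1 and 7.58 ± 0.126 for sgRNA2 (SD, n = 2 each), with all 4 knockout libraries below both controls. The blocked difference of PMVK was -0.37 (SE 0.169, edgeR adjusted p 0.363), and limma with the block called it (adjusted p 0.0239).

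The estimated counts, which the authors deposited in a second table and which give reads that align to several places a share, placed 2 of these genes past the threshold. With the replicate block, AACS was higher in the knockout by 0.43 (SE 0.0845, edgeR adjusted p 0.0152) and PMVK lower by 0.54 on the log2 scale (SE 0.134, edgeR adjusted p 0.0497), where 3.03% of 12764 genes were called, 1.97% higher and 1.07% lower. TM7SF2 was at 0.45 there (edgeR adjusted p 0.0959). AACS also passed for sgRNA1 alone (0.46, edgeR adjusted p 0.0433; background 1.39%), and for sgRNA2, against the same control libraries, its value was 0.40 (edgeR adjusted p 0.0612; 0 lipid genes called, background 2.26%). Without the block the estimated counts gave 0 calls among the lipid genes.

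Pairing each knockout library with the control library of its number gave 4 differences per gene, which share the control libraries between guides. In log2 CPM, AACS differed by 0.37 and 0.57 with sgRNA1 (replicates 1 and 2) and by 0.34 and 0.31 with sgRNA2. TM7SF2 differed by 0.82 and 0.53 with sgRNA1 and by 0.56 and 0.30 with sgRNA2. PMVK was at -0.32 and -0.29 with sgRNA1 and at -0.45 and -0.43 with sgRNA2. AACS and TM7SF2 were the lipid genes at 0.3 or more on the same side in all 4 pairs, 2 of 34 with any count (5.88%) beside 3.81% of all genes tested. The 34 include ABCA1, which was not tested. At any size, 11 of 34 (32.4%) were on the same side in all 4 pairs, 2 higher and 9 lower. Over all genes tested this share was 31.1%, with 1987 higher and 1837 lower. In the estimated counts PMVK was at -0.54 and -0.43 for sgRNA1 and -0.55 and -0.64 for sgRNA2. All 4 knockout libraries were below both controls in CPM for PMVK, IDI1, FDPS and CYP51A1, and above both for AACS and TM7SF2. Over all genes tested, the knockout libraries did not overlap the controls in 9.45%, above them in 5.04% and below them in 4.41%. In FPKM the separation was lost for IDI1, at 46.6 in sgRNA1 replicate 1 against controls of 45.9 and 45.6. It was also lost for FDPS, at 177 in that library against 171 in control replicate 2. For CYP51A1, 83.2% of the exon bases overlap other genes.

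**Figure D2:**
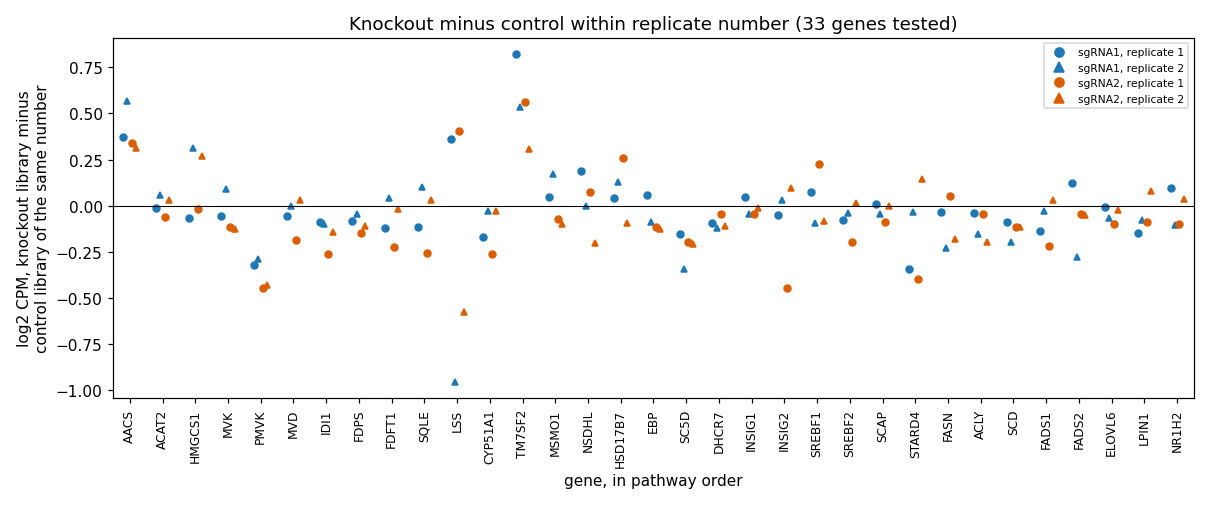
Log2 CPM of each knockout library minus the control library of the same replicate number, for the 33 genes tested, in pathway order (blue sgRNA1, orange sgRNA2, circles replicate 1, triangles replicate 2). Only AACS and TM7SF2 are at 0.3 or more in all 4 pairs, and LSS is above 0 in replicate 1 and below 0 in replicate 2 with both guides in these whole-number counts, though not in the estimated counts.

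No lipid gene passed the test between the guides: sgRNA2 against sgRNA1 gave 0 of 33 calls in edgeR without the block (0 at an unadjusted p, background 0%) and 0 with it (background 0.0896%). For AACS the blocked difference between guides was -0.15, with a 95% interval of -0.43 to 0.13, and for TM7SF2 it was -0.24 (-0.60 to 0.11). The wider lipid network gave no calls either. Of 45 further genes of isoprenoid branches, sterol transport, SREBP processing, fatty acid supply, glycerolipid synthesis and LXR targets, 42 were tested. For the knockout, 0 of these were called without or with the block, beside 0% and 1.84% of all genes tested. At an unadjusted p there were 0 and 7, beside 284 and 1590 of all 12282 genes.

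The large differences in these genes lay between the replicate numbers. In a fit with guide group and number, 18 of 33 lipid genes were called by edgeR, 6 higher and 12 lower in replicate 2. The share of 54.5% stands beside 45.0% of all genes tested, of which 21.6% were higher and 23.5% lower. By role, the called isoprenoid genes (4 of 8) were all higher in replicate 2, the called sterol enzymes (4 of 11) were 2 higher and 2 lower, and the called regulators (4 of 6) and fatty acid genes (6 of 7) were all lower. The libraries of the numbers did not overlap in CPM for 17 genes, beside 52.1% of all genes tested. What a replicate number marks is not stated in the labels.

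**Figure D3:**
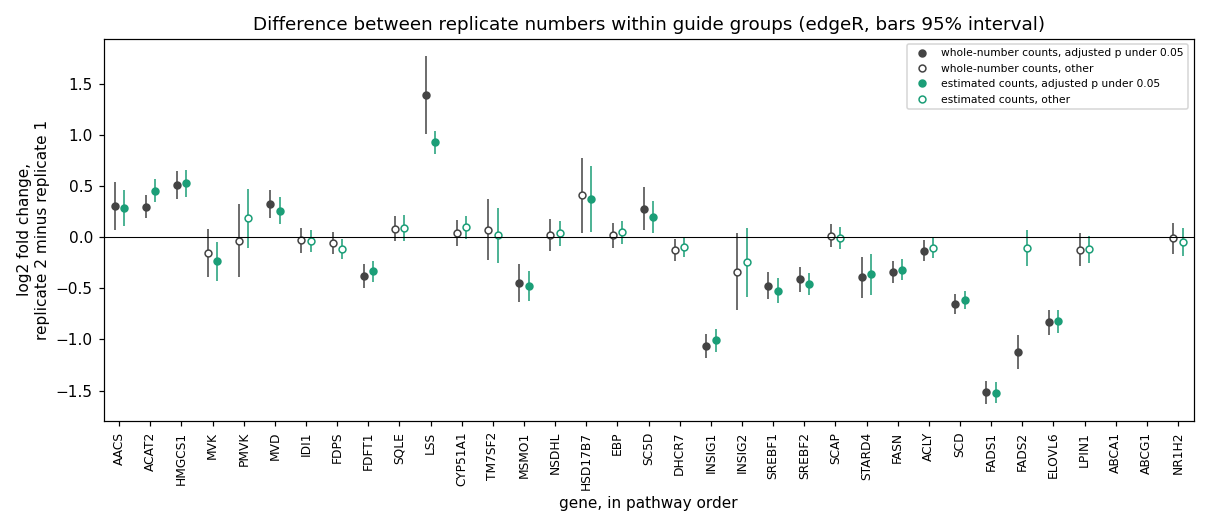
Log2 fold change of replicate 2 against replicate 1 within guide groups, with 95% intervals, from the whole-number counts (grey) and the estimated counts (green); filled points have an edgeR adjusted p under 0.05. FADS1, INSIG1, ELOVL6 and SCD are lower in replicate 2 in both tables, HMGCS1 and LSS higher in both, and FADS2 is called lower in the whole-number counts only.

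FADS1 showed the widest gap of the 33 genes in both count tables. FADS1 (chr11:61799625-61829318, reverse strand) was at 289, 264 and 248 FPKM in replicate 1 and 95.3, 90.1 and 95.25 in replicate 2, so the groups were far apart. Its level in replicate 2 was 0.35 times that in replicate 1, a log2 fold change of -1.52 (SE 0.0517, edgeR adjusted p 5.68e-11). ELOVL6, which elongates palmitate, was at 52.1, 51.6 and 49.6 FPKM against 30.0, 27.9 and 29.1, a change of -0.83 (SE 0.0573). SCD was at 196, 186 and 185 FPKM against 132, 117 and 123, a change of -0.66 (SE 0.0444). FASN, the synthase, was at 185, 184 and 195 FPKM against 166, 141 and 148, a change of -0.34 (SE 0.0487). In these 4 genes every library of replicate 2 was below every library of replicate 1, and edgeR adjusted p ranged up to 6.47e-05. ACLY, which supplies cytosolic acetyl-CoA, was at 122, 118.2 and 118 FPKM against 122, 109 and 105, and its small difference of -0.13 (SE 0.0479, edgeR adjusted p 0.0378) was called neither in the estimated counts nor without any of the sgRNA1 or sgRNA2 libraries (edgeR adjusted p 0.2005 to 0.242). LPIN1 was the fatty acid gene that missed the threshold, at -0.12 (edgeR adjusted p 0.203).

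FADS2 depended on the table. Its whole-number counts were 1064, 1212 and 1098 in replicate 1 and 585, 485 and 548 in replicate 2, a log2 fold change of -1.12 (SE 0.0780, edgeR adjusted p 6.96e-08). The deposited FPKM of FADS2 was 8.29, 8.88 and 8.94 against 8.14, 7.52 and 8.80, and the estimated counts gave -0.10 (edgeR adjusted p 0.309). FADS2 had 2.00 times as many whole-number counts as estimated counts, while FADS1 had 0.54 times. Over all genes the whole-number counts were 50.4% to 51.6% of the estimated ones by library, so FADS1 was near that share and FADS2 far above it. The FADS2 counts are therefore uncertain. Exons of FADS1 and FADS2 overlap over 490 bases on opposite strands and the strand setting is not stated, but the part of that overlap in the difference between tables was not tested.

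Of the 6 regulators, 4 were called, all lower in replicate 2. INSIG1 (chr7:155297776-155310235, forward strand) was at 76.6, 76.7 and 70.75 FPKM in replicate 1 and 38.8, 35.7 and 37.4 in replicate 2. The change was -1.07 (SE 0.0545, edgeR adjusted p 3.77e-09), or 0.48 times the level. SREBF1 was at 42.4, 43.9 and 48.05 FPKM against 32.7, 30.6 and 31.3, and SREBF2 at 43.3, 39.2 and 39.45 against 30.3, 29.4 and 29.5. Their changes were -0.48 (SE 0.0615) and -0.41 (SE 0.0566), with no overlap between the numbers in either gene. STARD4 was at 16.1, 13.1 and 12.9 FPKM against 11.3, 11.04 and 13.05, which overlapped in FPKM though its counts gave -0.39 (SE 0.0933, edgeR adjusted p 0.00338). Limma did not call STARD4 in any of 3 settings on FPKM (adjusted p 0.0844 to 0.203), and without control replicate 1 or 2 its change was -0.24 or -0.25. SCAP did not pass the test, at 0.02 (95% interval -0.10 to 0.13), and INSIG2, with 75 to 101 counts, was at -0.34 (-0.71 to 0.04).

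**Figure D4:**
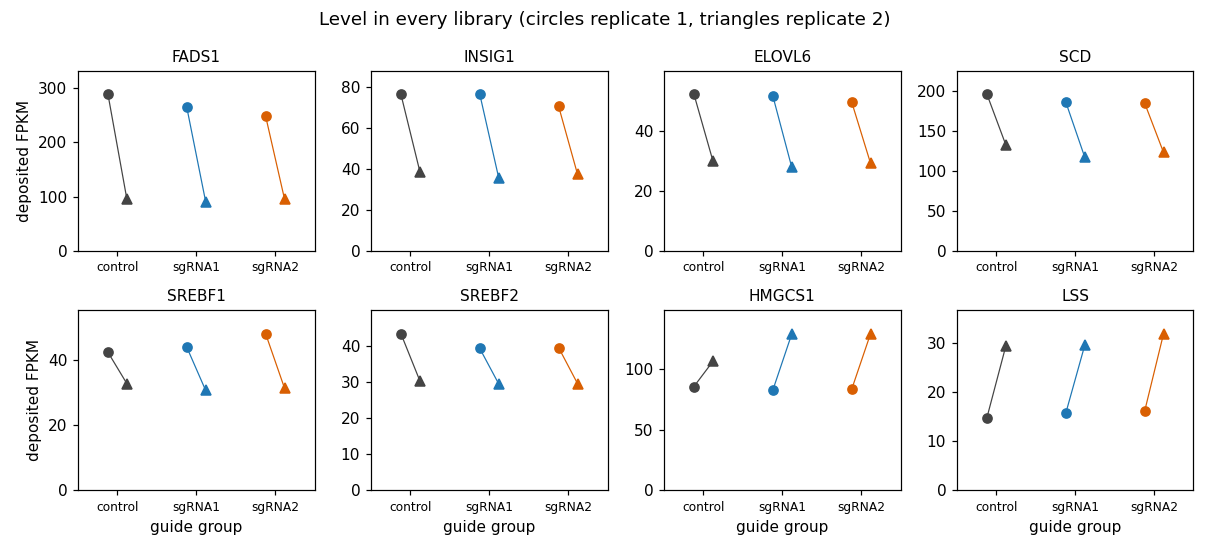
Deposited FPKM of 8 genes in every library (circles replicate 1, triangles replicate 2, lines join the libraries of a guide group, axes start at 0). FADS1, INSIG1, ELOVL6, SCD, SREBF1 and SREBF2 are lower and HMGCS1 and LSS higher in replicate 2 of all 3 groups.

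Unlike the called regulators, the 4 isoprenoid genes called in the whole-number counts were higher in replicate 2. HMGCS1 was at 85.4, 82.3 and 82.9 FPKM in replicate 1 and 106, 128 and 129 in replicate 2, a change of 0.51 (SE 0.0617, edgeR adjusted p 1.46e-05). ACAT2 was at 104, 96.8 and 94.4 FPKM against 133, 140.3 and 133, a change of 0.30 (SE 0.0508). In the estimated counts the change of ACAT2 was 0.45 (SE 0.0516). Its whole-number counts were 0.77 times the estimated ones, above the 50.4% to 51.6% over all genes by library. Of its exon bases, 52.3% overlap genes on the opposite strand, and the size of its change is uncertain. MVD was at 44.0, 42.1 and 37.5 FPKM against 48.3, 49.9 and 50.2, a change of 0.32 (SE 0.0659). The numbers did not overlap in these 3 genes. AACS, at 0.31 (SE 0.109, edgeR adjusted p 0.0326), overlapped between the numbers, with its control in replicate 2 at 6.36 FPKM, and was not called without sgRNA1 replicate 1 or replicate 2 (edgeR adjusted p 0.251 and 0.279). The 4 isoprenoid genes that did not pass were MVK, PMVK, IDI1 and FDPS, between -0.15 and -0.03. MVK, at 13.5, 12.8 and 11.04 FPKM against 10.4, 10.8 and 10.5, did not overlap between the numbers in FPKM and was called lower in the estimated counts (-0.23, SE 0.0878, edgeR adjusted p 0.0393).

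The sterol enzymes had no common direction. FDFT1 was at 135, 129.8 and 122 FPKM in replicate 1 and 101, 105 and 103 in replicate 2, a change of -0.38 (SE 0.0548, edgeR adjusted p 6.94e-05). MSMO1 was at 21.3, 20.9 and 20.5 FPKM against 14.7, 15.1 and 15.2, a change of -0.45 (SE 0.0878, edgeR adjusted p 0.000837). SC5D was higher in replicate 2 by 0.28 (SE 0.0990, edgeR adjusted p 0.0334), while its FPKM values, given above, overlapped, and it was not called with any of the 6 libraries left out (edgeR adjusted p 0.0565 to 0.116). LSS was at 14.8, 15.7 and 16.1 FPKM against 29.4, 29.5 and 31.9, a change of 1.39 in the whole-number counts (SE 0.177, edgeR adjusted p 2.35e-05) and 0.93 in the estimated counts (SE 0.0526). FDFT1 and MSMO1 were thus lower and LSS higher in replicate 2 with no overlap. The other 7 sterol enzymes, SQLE, CYP51A1, TM7SF2, NSDHL, HSD17B7, EBP and DHCR7, lay between -0.13 and 0.41 and did not pass the test. Leaving out either control library added SQLE and DHCR7 to the calls, and leaving out either sgRNA2 library added HSD17B7 and INSIG2, in fits that called 43.3% and 38.4% to 39.1% of all genes.

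Taking out trends with GC content and transcript length, a setting added after the data were seen, gave 19 lipid genes, 8 higher and 11 lower, beside 47.4% of all genes. The estimated counts gave 18, 7 higher and 11 lower, beside 52.6% of all genes there (25.5% higher, 27.1% lower). Over all genes, taking out these trends moved the split from 2647 higher and 2882 lower to 3455 higher and 2367 lower. FADS1, INSIG1, ELOVL6, SCD, FASN, FDFT1, MSMO1, SREBF1, SREBF2, HMGCS1, ACAT2 and LSS kept their direction and their call in all 17 other settings run. Sizes moved more in some genes, from -0.41 to -0.12 for FASN and from 0.92 to 1.66 for LSS. Of the further lipid genes, 27 of 42 (64.3%) were called in the fit without these corrections, 11 higher and 16 lower, beside the 45.0% of all genes. They included ACSL4, an acyl-CoA synthetase, at -1.18 (SE 0.0892), ME1, the cytosolic malic enzyme, at 0.75 (SE 0.0952), and NPC1, a lysosomal cholesterol transporter, at -0.43 (SE 0.0620). These are examples: over the 42 genes, called or not, the changes ran from -2.04 to 0.75. Beside these differences, the summed level of the 11 K562-like markers was 9285 to 12581 FPKM in replicate 1 and 21188 to 31138 in replicate 2, most of it HBG2, a fetal globin gene. The T cell list summed to 23.2 to 38.7 against 4.63 to 6.95, nearly all CD3D, with CD3E at or under 0.22 and CD2 at or under 0.05. The monocyte list summed to 8.61 to 12.3 against 2.14 to 3.51, nearly all LYZ. The epithelial list, nearly all EPCAM with KRT5 at 0, summed to 63.9 to 76.2 in both, and the B cell, fibroblast and hepatocyte genes were all under 1 FPKM. Their part in the result was not tested.

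Whether the knockout difference itself depended on the number was tested with an interaction term. It called 0 of 33 lipid genes beside 0.244% of all genes tested. Without adjustment, 5 had a p under 0.05, beside 1026 of all 12282 genes. LSS came closest: its counts were 115, 155 and 163 in replicate 1 and 561, 291 and 365 in replicate 2, so knockout exceeded control in the first and was below it in the second. The interaction of LSS was -1.14 (SE 0.238, edgeR adjusted p 0.0571), but the estimated counts, 996, 1121 and 1158 against 2070, 2120 and 2174, gave -0.01 (edgeR adjusted p 0.984). LSS had 0.17 times as many whole-number as estimated counts, below the 50.4% to 51.6% over all genes by library, so its whole-number counts are uncertain. The cause of that gap was not tested. HMGCS1 was at 0.33 (SE 0.0916, edgeR adjusted p 0.237). The interaction of LSS was called without sgRNA1 replicate 1 (edgeR adjusted p 0.0436), and those of LSS (0.00221) and HMGCS1 without sgRNA2 replicate 2, in fits that called 0.428% and 0.762% of all genes.

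Promoter sequence was examined because these genes share a known regulator and the SREBF2, INSIG1, FADS1, HMGCS1 and LSS levels differed between the numbers in different directions. The 250 bases before the RefSeq start of each (GRCh38.p14) are given, 5′ to 3′ on the gene's strand. Capitals mark matches on either strand to TCACNCCAC (sterol regulatory element core), CCAAT (NF-Y box), GGGCGG (GC box), CACGTG (E-box) and CCCATAATA (core of the ZNF410 motif).
SREBF2, chr22:41832855-41833104, forward strand: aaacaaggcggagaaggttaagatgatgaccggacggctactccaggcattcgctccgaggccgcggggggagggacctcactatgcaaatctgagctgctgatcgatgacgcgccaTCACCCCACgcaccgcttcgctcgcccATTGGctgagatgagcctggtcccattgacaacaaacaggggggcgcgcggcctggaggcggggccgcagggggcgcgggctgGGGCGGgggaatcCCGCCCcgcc
INSIG1, chr7:155297628-155297877, forward strand: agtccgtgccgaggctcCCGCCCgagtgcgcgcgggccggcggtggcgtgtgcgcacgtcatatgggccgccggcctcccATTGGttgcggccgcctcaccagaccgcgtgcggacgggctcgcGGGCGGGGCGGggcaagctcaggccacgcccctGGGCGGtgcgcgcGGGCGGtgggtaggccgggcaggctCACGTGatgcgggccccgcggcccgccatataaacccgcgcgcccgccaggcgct
FADS1, chr11:61817004-61817253, reverse strand: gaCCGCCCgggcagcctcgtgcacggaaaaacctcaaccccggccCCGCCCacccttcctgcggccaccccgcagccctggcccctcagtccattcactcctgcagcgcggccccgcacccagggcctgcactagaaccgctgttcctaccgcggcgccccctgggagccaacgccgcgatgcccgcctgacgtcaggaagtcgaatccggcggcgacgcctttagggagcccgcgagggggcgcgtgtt
HMGCS1, chr5:43313413-43313662, reverse strand: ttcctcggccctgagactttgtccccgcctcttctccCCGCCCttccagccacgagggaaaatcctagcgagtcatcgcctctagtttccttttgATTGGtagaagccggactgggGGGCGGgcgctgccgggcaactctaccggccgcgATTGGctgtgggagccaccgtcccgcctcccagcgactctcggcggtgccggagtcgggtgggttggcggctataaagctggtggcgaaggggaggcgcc
LSS, chr21:46228775-46229024, reverse strand: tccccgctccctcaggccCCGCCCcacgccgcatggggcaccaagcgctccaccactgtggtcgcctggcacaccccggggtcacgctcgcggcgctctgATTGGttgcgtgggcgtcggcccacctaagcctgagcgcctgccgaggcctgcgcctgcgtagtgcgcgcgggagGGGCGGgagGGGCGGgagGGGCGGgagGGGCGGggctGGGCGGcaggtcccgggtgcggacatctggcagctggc
The SREBF2 sequence holds 1 sterol regulatory element core, starting 133 bases before the gene start, beside an inverted CCAAT. INSIG1 holds an E-box, an inverted CCAAT and 5 GC boxes, some of which overlap. FADS1, the gene with the widest gap between numbers, holds 2 GC boxes and none of the other motifs. HMGCS1 holds 2 inverted CCAAT and 2 GC boxes, and LSS 1 inverted CCAAT and 6 GC boxes.

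Windows from 250 bases before to 50 after the start were given for 30 of the 35 genes, in 40 windows. GC boxes were in 36 of the 40 (90%) beside 45% of all 35116 windows, and CCAAT in 22 (55%) beside 34.6%. The E-box was in 6 (15%) beside 7.26%, and the sterol regulatory element core in 1 (2.5%) beside 1.13%. The ZNF410 core was in 0 of 40 windows and in 0.0854% of all. ACAT2, FDFT1, SQLE, FASN and ABCG1 were without a window. These matches describe letters in a fixed window and show neither binding nor its absence.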

How the data were processed

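RNA was measured in 6 K562 libraries. Per the submitters' processing notes, Trim Galore, HISAT2 2.2.1, SAMtools 1.9, HTSeq 0.6.1, RSEM 1.3.2 and DESeq2 1.36.0 were used with hg38, with no roles stated. The strand setting and annotation are not given in the sources used here. The authors deposited whole-number counts per gene symbol (8788816 to 9537470 per library, after 5 rows of no gene with 61.6% to 62.6% of the total were left out). They also deposited estimated counts (17228254 to 18689560), FPKM and TPM, per the file headers. FPKM and TPM are scaled for gene length and library size.

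Counts were tested with edgeR 4.0.16 (quasi-likelihood F-test, TMM, filterByExpr by group, Benjamini-Hochberg over 12282 genes, called at an adjusted p under 0.05) in R 4.3.3. Guide and genotype comparisons had no block, and the comparison of replicate numbers included the guide group. CPM are TMM-scaled. SE is the log2 fold change over the square root of F. Alternatives used estimated counts rounded to whole numbers, DESeq2 1.42.0, limma 3.58.1 on log2(FPKM + 1) or log2(FPKM + 0.1) with a mean FPKM of at least 0.5 or no filter, other scalings and filters, left-out libraries, and removal of GC content and length trends.

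Same-numbered libraries deviated together (r = 0.81, 0.757 and 0.823 over 9966 genes averaging 50 counts or more), and were treated as pairs. This comes from the data, not the labels. Replicates were distinct (chi-square per degree of freedom 27.6 to 32.9). On simulated counts with 200 changed genes (12098 to 12164 genes tested), the knockout fit without block recovered 0% of 1.5-fold and 38% of 2-fold changes, the blocked fit 69% and 88.5%. The unblocked fit of each guide recovered 0% at both sizes, the blocked fit 56% and 81.5% for sgRNA1 and 64.5% and 76% for sgRNA2, and the fit of replicate numbers 63% and 88.5%.

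All 35 genes were named by role, with values in every library for those called, those at least 0.3 on the same side in all pairs, and the highest and lowest of each role. Genes and lists were chosen with earlier results of these data known. Positions and exon overlaps are from GENCODE v29 (GRCh38), and promoter windows from RefSeq (GRCh38.p14). Intervals and the limit of 3 counts behind a 0 cover counting error only. TPM entered only the order of levels.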

Additional observations from a re-analysis of the deposited data

Results flagged for a closer look

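INSIG2, the less abundant of the INSIG genes, had 1 of its 4 knockout libraries far from the other 3. The libraries were at 11.1 CPM (sgRNA1, replicate 1), 8.07 (sgRNA1, replicate 2), 8.42 (sgRNA2, replicate 1) and 8.47 (sgRNA2, replicate 2). The gap of the highest to the nearest was 0.868 of the whole range, past the 95% limit of Dixon's test for 4 values. The control libraries were at 11.5 and 7.91 CPM, so the high library lay within the range of the controls, and it rests on 101 counts. The high knockout library and the high control are both replicate 1, and the test takes the 4 libraries as alike although libraries differed by number. Knockout libraries of 33 genes were examined this way, and chance flags about 1 in 20 groups.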

How the results depend on the processing

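Results were recomputed under up to 26 other settings. The count of lipid genes called between the replicate numbers stayed between 13 and 23 in 17 settings. The share of all genes called moved as well. It was 45.0% in the main fit, 52.6% in the estimated counts and 47.4% with GC content and length trends removed. The counts alone therefore do not show a departure from the background. With GC content and length trends removed, the difference of MVK between the numbers changed sign to 0.00367, and FADS2 did so in the estimated counts, at 0.0252; neither passed the test there. ACLY missed the threshold in 11 settings, SC5D in 12, FADS2 in 4 (besides its change of sign), AACS and STARD4 in 3 and MVD in 1, while HSD17B7 passed in 7 and MVK in 3. For the guides and the knockout, the unblocked settings gave 0 calls too, which says nothing about stability, since on simulated counts the unblocked fits of each guide recovered 0% even of 2-fold changes and that of the knockout 38%. The replicate block alone kept 0 for sgRNA1, sgRNA2, the knockout and the difference between guides. Combined with estimated counts it gave 1 for sgRNA1 (AACS) and 2 for the knockout (AACS, PMVK), and with limma on log2(FPKM + 1) 3 for the knockout (AACS, PMVK, TM7SF2). With GC content and length trends removed as well, the block gave 1 for sgRNA1, 1 for sgRNA2 and 1 for the knockout, FASN each time, lower (1.08%, 1.9% and 2.33% of all genes called). Leaving out a library under the block gave 0 to 3 for sgRNA1: HMGCS1, LSS and FASN without control replicate 1, TM7SF2 and STARD4 without control replicate 2, TM7SF2 without sgRNA2 replicate 1, and AACS and TM7SF2 without sgRNA2 replicate 2 (2.45%, 3.63%, 1.94% and 2.5% of all genes called). It gave 0 to 2 for sgRNA2 (HMGCS1 and LSS, or SQLE and STARD4, without control replicate 1 or 2, with 3.05% and 5.02% of all genes called) and 0 to 2 for the knockout (HMGCS1 and LSS without control replicate 1, with 1.16%). The interaction gave 1 (LSS) with DESeq2 size factors and 1 (LSS) with GC content and length trends removed (0.261% and 0.407% of all genes called), and 0 to 2 with a knockout library left out (LSS without sgRNA1 replicate 1, HMGCS1 and LSS without sgRNA2 replicate 2, with 0.428% and 0.762% of all genes called). It could not be fitted without a control library. The causes were not tested. In left-out fits a lone library is assumed to vary like the other groups.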
